A study of Mus musculus with 6 samples.

Results

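The genes of MHC class I antigen presentation were measured in haematopoietic stem cells of mouse bone marrow. They are the heavy chains H2-K1, H2-D1, H2-T23 and H2-M3, the light chain B2m, the peptide transporter subunits Tap1 and Tap2, the loading factor Tapbp, the trimming peptidase Erap1 and the transcriptional activator Nlrc5. Every probe set that the platform table gives exactly 1 of these 10 symbols was taken, which gave 26 of 45101 probe sets on the array. Of the 10 genes, 9 had such a probe set, among 18194 genes with at least 1 on the array. H2-T23 had 0, since the 2 probe sets that list it also list another symbol, so its expression is not analysed here and only its promoter is. Of the 26 probe sets, 20 were bright enough to be tested, for 9 genes.

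The mice were C57BL/6, between 8 and 12 weeks old, and housed under specific pathogen-free conditions. The cells were sorted from marrow as the side population, which exports Hoechst dye, and by their stain for c-kit, Sca-1 and markers of mature lineages. Of 6 arrays, 3 held RNA from mice labelled Lrg-47-/-, mutant for the interferon-inducible GTPase Irgm1 (Lrg-47 is its older name), and 3 held RNA from wild-type mice. The labels name no agent given to either group, and do not say how the allele was made, whether it is absent from all cells, or whether the arrays of a group came from separate mice. If they did not, the p-values measure only the spread between arrays, which may be technical.

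Class I molecules display short peptides from inside the cell to CD8 T cells and are recognised by receptors of NK cells. A heavy chain folds with the light chain beta-2 microglobulin in the endoplasmic reticulum, where tapasin (Tapbp) holds it next to the transporter TAP until a peptide binds. TAP is a dimer of Tap1 and Tap2 that pumps in peptides cut by the proteasome, and Erap1 trims them to the final length. Interferons induce most of these genes through STAT and IRF factors, and Nlrc5 binds with RFX, CREB and NF-Y factors to an upstream module of the class I genes known as the SXY module.

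Sequences upstream of the start were read for 8 of the 10 genes from RefSeq (build GRCm38.p6). They are shown for H2-K1, H2-D1, H2-M3 and B2m, with Tap1, the transporter subunit that differed most between the groups. The windows of H2-T23, Tapbp and Erap1 were read but are not shown. Each is the 250 bases before the annotated start, 5′ to 3′ on the gene's strand. Capitals mark matches, on either strand, to 6 motifs: the interferon regulatory factor element AANNGAAA, the core of the interferon-stimulated response element (GAAA, any 2 bases, GAAA, which overlaps the first), the gamma-activated site TTCNNNGAA, a kappa B site (GGG, any 2 bases, TT, any base, CC), the core TGACG of the X2 box and the Y box ATTGG. H2-K1 lies at chr17:34000348-34000597 (minus strand; the first of 2 starts in the table), H2-D1 at chr17:35262844-35263093 (plus strand), H2-M3 at chr17:37269984-37270233 (plus strand), B2m at chr2:122147437-122147686 (plus strand) and Tap1 at chr17:34187306-34187555 (plus strand).
H2-K1: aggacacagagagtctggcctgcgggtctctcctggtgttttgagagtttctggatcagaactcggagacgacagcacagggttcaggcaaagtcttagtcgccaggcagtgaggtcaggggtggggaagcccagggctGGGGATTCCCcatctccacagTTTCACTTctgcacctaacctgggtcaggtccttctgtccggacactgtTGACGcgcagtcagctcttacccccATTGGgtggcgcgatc
H2-D1: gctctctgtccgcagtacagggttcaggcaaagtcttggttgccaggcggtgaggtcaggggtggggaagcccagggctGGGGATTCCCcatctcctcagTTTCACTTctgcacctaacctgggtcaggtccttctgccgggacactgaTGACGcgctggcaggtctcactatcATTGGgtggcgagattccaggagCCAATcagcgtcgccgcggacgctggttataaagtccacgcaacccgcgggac
H2-M3: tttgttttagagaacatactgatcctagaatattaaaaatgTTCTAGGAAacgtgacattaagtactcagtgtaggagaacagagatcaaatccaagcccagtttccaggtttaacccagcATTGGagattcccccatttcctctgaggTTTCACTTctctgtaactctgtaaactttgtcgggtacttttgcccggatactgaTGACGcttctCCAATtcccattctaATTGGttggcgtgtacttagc
B2m: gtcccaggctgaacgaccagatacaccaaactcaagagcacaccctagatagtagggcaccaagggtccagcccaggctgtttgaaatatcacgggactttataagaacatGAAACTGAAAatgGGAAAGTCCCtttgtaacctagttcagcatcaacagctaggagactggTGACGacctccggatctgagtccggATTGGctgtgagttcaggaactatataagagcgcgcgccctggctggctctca
Tap1: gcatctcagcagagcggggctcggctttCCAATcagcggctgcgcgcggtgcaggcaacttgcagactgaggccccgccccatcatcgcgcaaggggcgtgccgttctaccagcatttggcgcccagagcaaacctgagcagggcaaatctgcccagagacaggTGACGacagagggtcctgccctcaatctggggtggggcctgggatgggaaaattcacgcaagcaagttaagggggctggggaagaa

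The windows of H2-K1 and H2-D1 were 87.4% identical over 190 aligned bases, while H2-M3 shared 60.8% and H2-T23 58.2% with H2-K1. In H2-K1 and H2-D1 alike, the kappa B match GGGGATTCCC began 21 bases before the match TTTCACTT to the interferon regulatory factor element. The X2 core followed 49 bases further on and the Y box 25 bases after that. This spacing of 25 bases between the starts of the X2 core and the Y box was also found in H2-M3 and B2m. It occurred in 4 of the 8 windows, against 0.0925% of 27025 windows of this length (25 promoters in all), and was noticed in these genes before it was counted in the others. The interferon regulatory factor element matched in 5 of the 8 (21.6% of all windows), the response element core in 2, H2-T23 and B2m (3.04%), and the kappa B site in 3 (4% of all). The X2 core matched in 5 (17.9%), the Y box in 7 (34.5%) and the gamma-activated site in H2-M3 alone (7.18%). H2-T23 had a Y box match but no X2 core match. In the Tap1 window the matches were 1 X2 core and 1 Y box, which are not at that spacing. A match is only a run of letters, and binding was not measured.

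Values are log2 expression values, in which a difference of 1 is a doubling of signal. Irgm1 itself was at 7.68, 8.58 and 7.84 on the arrays labelled Irgm1-/-, against 8.39, 8.57 and 8.36 in wild type (log2 difference −0.41, SE 0.25, limma adjusted p = 0.475). The deleted part of the gene is not given, so its probe set checks nothing about the genotype, and the groups are named by their labels. Of 14 measured stem cell markers, all 14 lay above the highest bacterial control value (3.18, here called the floor) on all 6 arrays, and limma called 0 of them. Their summed linear signal was 36135 to 41526 on the knockout-labelled arrays and 48082 to 54368 in wild type. Of 23 measured T and NK cell markers, 5 of the 11 tested rose on the knockout-labelled arrays (Ccl5, Klrd1, Gzmb, Ms4a4b and Thy1). The summed linear signal of the 23 was 9644 to 20803 there against 698 to 1165 in wild type. Ccl5 was the largest part of it on the knockout-labelled arrays. Cd4, Cd8b1, Zap70, Ncr1 and Prf1 lay at or below the floor on every array. Klrk1 (6.13), Cd5 (5.17), Il2rb (3.43) and Cd6 (3.23) lay above it on knockout-labelled replicate 3 alone. As background, T and NK cells carry class I themselves. In the lists of other cell types, limma called the monocyte and macrophage marker Ms4a6c higher (1.53, adjusted p = 0.0313). It called the stromal and endothelial marker Col1a2 lower (−2.88, adjusted p = 0.00889), and no other marker of those lists. Actin controls at the 3′ end read higher than those at the 5′ end, by a gap that grows as amplified RNA gets shorter. It was widest on knockout-labelled replicate 3 (3.56) and narrowest on wild-type replicate 3 (2.57), with 2.81 to 3.16 on the other arrays. In such bulk samples, fewer cells of a type and less RNA per cell cannot be told apart.

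No class I probe set passed the test. Of 20 tested, limma called 0 higher and 0 lower at an adjusted p under 0.05, where 1.39% of the 22580 tested probe sets were called (0.664% higher and 0.722% lower). At an unadjusted p under 0.05 there were 2, Tap1 and Nlrc5, where the share of all tested probe sets was 16.4%. The largest differences belonged to these same 2 genes, at 0.88 and 0.95. The groups did not overlap for 5 of 20, all higher on the knockout-labelled arrays (11.5% of all tested probe sets were higher in this sense). The median difference over the 20 was 0.14, against 0.01 over all tested probe sets, and 15 of 20 lay above 0 (51.5% of all). Many of these probe sets read similar transcripts and are not independent of each other.

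**Figure D1:**
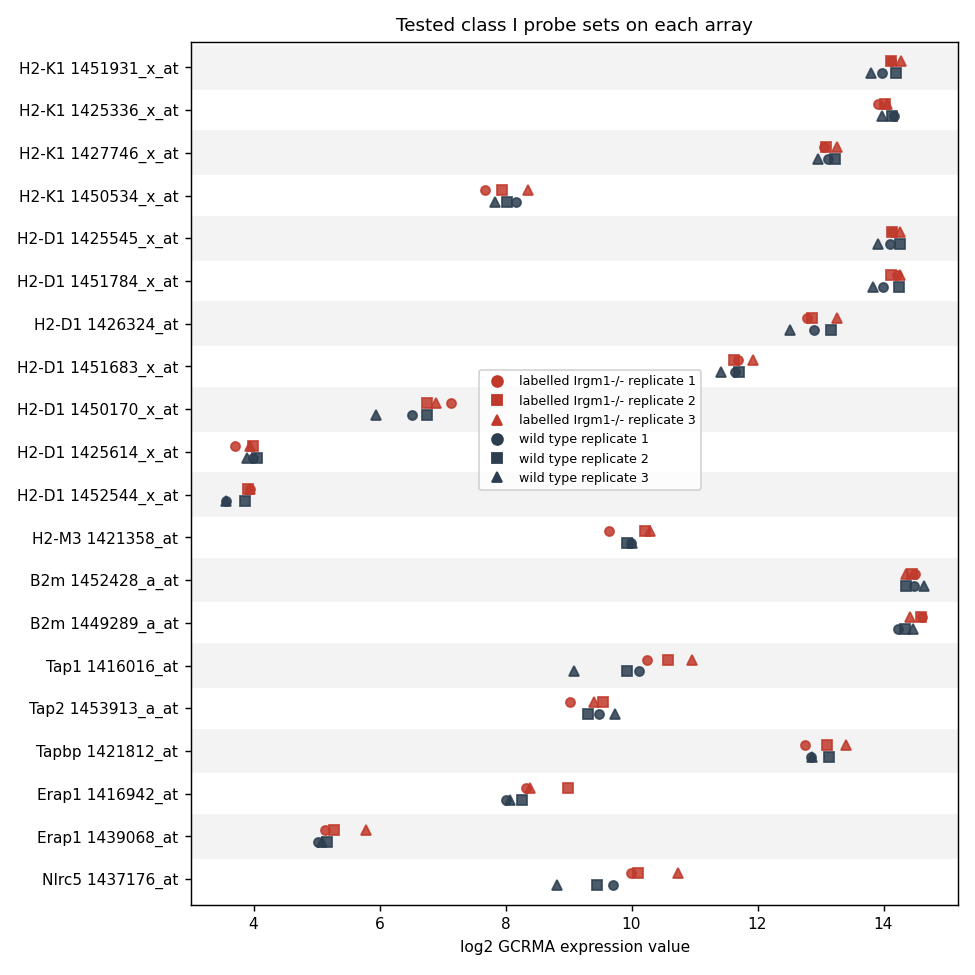
Log2 expression value (x axis) of each tested class I probe set (y axis, gene and probe set) on the 6 arrays. Red marks are the 3 arrays labelled Irgm1-/- and dark marks the 3 wild-type arrays, with the replicate number as the shape. H2-K1, H2-D1 and B2m reach 14 and above with the groups mixed, while Tap1 and Nlrc5 have all red marks to the right of the dark ones.

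No probe set of the classical heavy chains passed the test. H2-K1 and H2-D1, whose products present peptides to most CD8 T cells, had 13 probe sets, of which 11 carry the suffix _x_at, which marks probes that can bind other transcripts as well. With such similar genes, a signal cannot be assigned to H2-K1 or H2-D1 with certainty. Of the 13, 7 lay above 11 on every array, at or above the 96.8th percentile of the array. Their differences ran from −0.09 to 0.18, with adjusted p of 0.508 to 0.916. Over the 7, the 95% intervals reached from 0.790-fold to 1.48-fold of wild type.

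The brightest probe set of H2-K1, 1451931_x_at, gave 14.12, 14.11 and 14.27 on the knockout-labelled arrays against 13.98, 14.20 and 13.79 in wild type. The groups overlapped, with wild-type replicate 2 among the knockout-labelled values, and the difference was 0.18 (SE 0.12, adjusted p = 0.508). Another H2-K1 probe set, 1425336_x_at, went the other way, at 13.92, 14.03 and 14.05 against 14.17, 14.13 and 13.98 (−0.09, SE 0.09, adjusted p = 0.653). The brightest probe set of H2-D1, 1425545_x_at, gave 14.14, 14.14 and 14.27 against 14.10, 14.26 and 13.91, again with overlap (0.09, 95% interval −0.16 to 0.35, adjusted p = 0.727). The next, 1451784_x_at, gave 14.21, 14.12 and 14.27 against 14.00, 14.25 and 13.84 (0.17, adjusted p = 0.529). One H2-D1 probe set without a shared-sequence suffix was tested, 1426324_at. It gave 12.79, 12.86 and 13.26 against 12.89, 13.17 and 12.51, and its difference was 0.11 (95% interval −0.34 to 0.57). Of the 7 bright probe sets, 6 were highest on knockout-labelled replicate 3 and lowest on wild-type replicate 3, a pattern that 7.88% of all tested probe sets had and 8 of the 20 class I probe sets. These arrays are those with the widest and the narrowest actin gap, and the part of that gap in the pattern was not tested beyond the fits given further on.

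The dimmer heavy chain probe sets behaved less evenly. H2-D1 probe set 1450170_x_at gave 7.14, 6.76 and 6.90 against 6.52, 6.75 and 5.94, a difference of 0.53 (SE 0.25, adjusted p = 0.342), with groups that only just did not overlap. Without wild-type replicate 3 it was 0.30. For 1452544_x_at the values were 3.95, 3.92 and 3.94 against 3.57, 3.87 and 3.56 (0.27, SE 0.12, adjusted p = 0.305), near the floor. H2-D1 1425614_x_at, at 3.71 to 4.06, and H2-K1 1450534_x_at, at 7.68 to 8.36, differed by −0.10 and −0.02. The other H2-D1 probe sets were not tested, 1427651_x_at at 3.45 to 3.68 and 1451934_at below the floor on every array. The probe sets listed for H2-D1 thus span from under the floor to over 14, so the level of the gene depends on which of them is read.

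H2-M3, a nonclassical heavy chain that presents formylated peptides of bacteria and mitochondria, gave 9.64, 10.22 and 10.30 against 9.99, 9.92 and 10.01. The knockout-labelled values lay on both sides of wild type (0.08, SE 0.19, adjusted p = 0.881). B2m, the light chain that all these heavy chains need to reach the surface, had 2 tested probe sets. Its probe set 1452428_a_at gave 14.50, 14.45 and 14.36 against 14.48, 14.36 and 14.63, a difference of −0.06 (95% interval −0.28 to 0.17). The other B2m probe set, 1449289_a_at, gave 14.61, 14.59 and 14.42 against 14.22, 14.35 and 14.47, a difference of 0.20 (95% interval −0.04 to 0.43, adjusted p = 0.376). The groups overlapped on both, and the upper bounds correspond to 1.12-fold and 1.34-fold of wild type.

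Neither transporter subunit passed the test. Tap1 probe set 1416016_at gave 10.25, 10.57 and 10.95 on knockout-labelled arrays, against 10.11, 9.93 and 9.08 in wild type. All 3 knockout-labelled values lay above wild type, with replicate 3 the extreme of either group. The difference was 0.88 (SE 0.30, 95% interval 0.18 to 1.58), or 1.84-fold, and did not pass (adjusted p = 0.218). The 3 other Tap1 probe sets lay at or below the floor on every array. Tap2 gave 9.03, 9.55 and 9.41 against 9.49, 9.30 and 9.74, with overlap, a difference of −0.18 (SE 0.20, adjusted p = 0.697). The value of Tap1 minus Tap2 on each array was 1.22, 1.02 and 1.54 against 0.63, 0.63 and −0.66. The exact permutation test of this value, 2-sided and chosen after the values were seen, gave p = 0.1, the smallest that 3 arrays against 3 allow. Without wild-type replicate 3, the Tap1 difference was 0.57 (adjusted p = 0.337) and that of Tap2 was −0.06. Without knockout-labelled replicate 1, Tap2 was at −0.03.

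In the RefSeq gene order of chromosome 17, Tap1 and Tap2 stand in a row with the immunoproteasome genes, as Psmb9, Tap1, Psmb8 and Tap2. These proteasome subunits are exchanged into the proteasome under interferon and shift its cuts towards peptides that suit class I. Psmb9 rose from 10.01, 10.19 and 9.96 in wild type to 10.79, 10.95 and 10.90 (log2 difference 0.82, SE 0.13, adjusted p = 0.0345). This was a rise of 1.77-fold, and it lost the call without any 1 array, with adjusted p of 0.0645 to 0.143. The call was also lost with the replicate number as a block (adjusted p = 0.133), with no filter (0.0786), with a lower filter (0.0573) and without both arrays numbered 3 (0.0808). Psmb8 gave 11.05, 11.18 and 11.19 against 10.79, 10.77 and 10.74, also without overlap, and did not pass (0.37, SE 0.11, adjusted p = 0.182). Along this row the differences were thus 0.82, 0.88, 0.37 and −0.18. Psmb9 and Tap1 differed by a like amount, but the SD of the wild-type arrays was 0.12 for Psmb9 and 0.55 for Tap1.

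**Figure D2:**
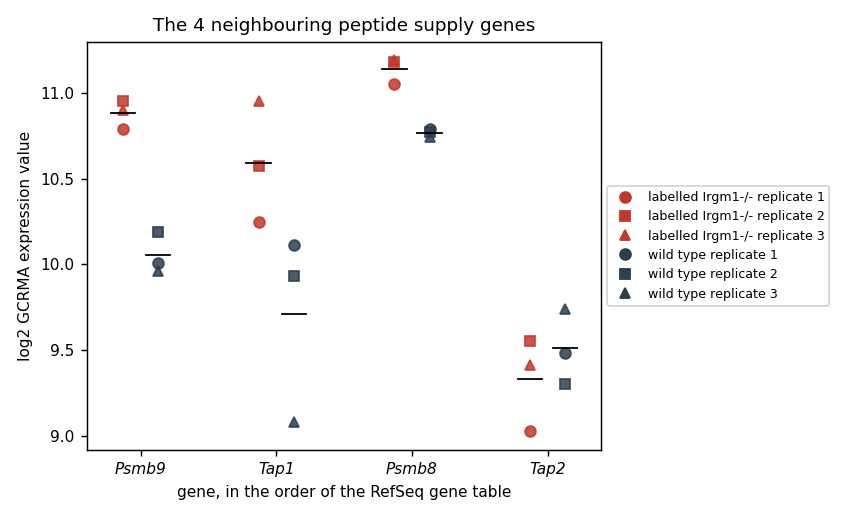
Log2 expression value (y axis) of 4 genes that stand next to each other on chromosome 17 (x axis, in RefSeq order), with red marks for the 3 arrays labelled Irgm1-/-, dark marks for the 3 wild-type arrays and a bar at each group mean. The groups are apart for Psmb9, Tap1 and Psmb8 and overlap for Tap2, and wild-type replicate 3 lies far below the other wild-type arrays for Tap1 alone.

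Tapasin (Tapbp), which bridges the heavy chain and TAP, gave 12.76, 13.10 and 13.40 against 12.85, 13.13 and 12.86, with overlap (0.14, SE 0.17, adjusted p = 0.744). Its other probe set lay below the floor on every array. Erap1 had 2 tested probe sets, and both were higher on average on the knockout-labelled arrays. Probe set 1416942_at gave 8.32, 8.995 and 8.39 against 8.00, 8.27 and 8.06, without overlap (0.46, SE 0.22, adjusted p = 0.352). Probe set 1439068_at gave 5.14, 5.28 and 5.79 against 5.02, 5.17 and 5.08, where knockout-labelled replicate 1 fell among the wild-type values (0.31, SE 0.20, adjusted p = 0.480). Neither passed. The first was at 0.24 without knockout-labelled replicate 2, and the second at 0.12 without knockout-labelled replicate 3.

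Nlrc5, the activator of class I transcription, had the largest difference of the 20. Its probe set 1437176_at ran from 9.99 on replicate 1 to 10.74 on replicate 3 of the knockout-labelled arrays (mean 10.28 ± 0.40, SD, n = 3), and gave 9.71, 9.45 and 8.82 in wild type (mean 9.33 ± 0.46, SD, n = 3). The groups did not overlap, and the replicates numbered 3 were again the highest and the lowest. The difference was 0.95 (SE 0.28, 95% interval 0.28 to 1.61), or 1.93-fold, with an adjusted p of 0.177. Without both arrays numbered 3 it was 0.47 (adjusted p = 0.175), and that of Tap1 was 0.39 (adjusted p = 0.260), an alternative chosen after seeing the data. With the actin gap as a covariate, also chosen then, the Nlrc5 difference was 0.82 and passed (adjusted p = 0.0414), while Tap1 at 0.76 did not (adjusted p = 0.082). Over all 17 alternatives the adjusted p ran from 0.0414 to 0.364 for Nlrc5 and from 0.082 to 0.428 for Tap1. Nlrc5 minus the mean of the brightest H2-K1 and H2-D1 probe sets differed by 0.81 between the groups, and Tap1 minus the same mean by 0.75. The exact permutation test, 2-sided, gave p = 0.1 for each, the smallest possible, and p = 0.1 after adjustment over the 3 such tests, all chosen after the values were seen.

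**Figure D3:**
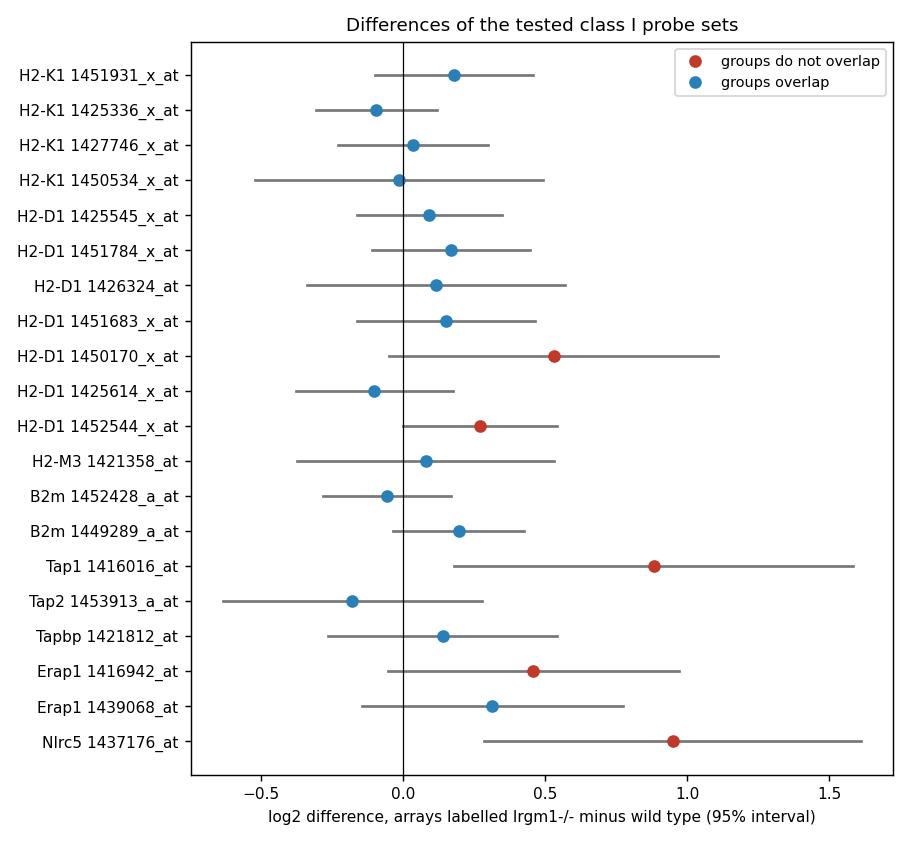
Log2 difference between the 3 arrays labelled Irgm1-/- and the 3 wild-type arrays (x axis) with its 95% interval for each tested class I probe set (y axis); red points mark the 5 whose groups did not overlap. The intervals of Tap1 and Nlrc5 lie wholly above 0, although neither passed after adjustment, and those of the bright heavy chain probe sets lie around 0.

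Of the 11 tested T and NK cell markers, 5 rose on the knockout-labelled arrays, where Tap1 and Nlrc5 were higher without passing. The others did not pass. They were Nkg7 at 2.61 (adjusted p = 0.0532), Cd2 at 1.99 (0.283), Cd8a at 0.87 (0.519) and Cd3e at 0.77 (0.464). Cd247 was at 0.19 (adjusted p = 0.829) and Lat at −0.21 (adjusted p = 0.794). The sum of the 23 measured markers on the knockout-labelled arrays was 10393, 9644 and 20803. In this linear sum Ccl5 (log2 12.81, 12.77 and 13.52) was the largest part. Cd3d (4.56, 3.45 and 6.91) and Cd3g (4.15, 3.32 and 7.06) were far higher on replicate 3 than on replicates 1 and 2. In wild type they were at 2.44 to 2.49 and 2.88 to 2.92. The array with the highest sum, replicate 3, was also highest for Tap1 and Nlrc5. In wild type the sums were 1088, 698 and 1165, with Cd3d and Cd3g below the floor on every array. Wild-type replicate 3 had the lowest Tap1 and Nlrc5. The part of such cells in the result was not tested. Without knockout-labelled replicate 3 the differences were 0.70 for Tap1 (adjusted p = 0.299) and 0.72 for Nlrc5 (adjusted p = 0.226). The median difference of the 20 class I probe sets was 0.06 without this array and 0.08 without wild-type replicate 3. It was 0.0033 without both arrays numbered 3, where 10 of 20 lay above 0.

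**Figure D4:**
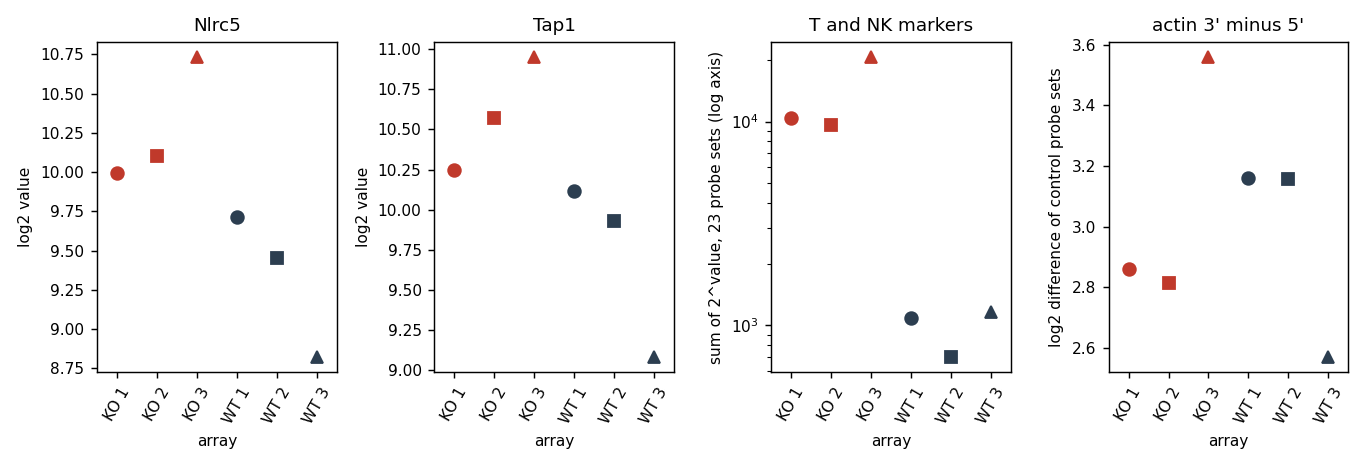
Values on each array (x axis; KO for arrays labelled Irgm1-/-, WT for wild type) of Nlrc5 and Tap1 (log2), of the summed linear signal of 23 T and NK cell marker probe sets (log axis) and of the actin 3′ minus 5′ gap (log2). Ccl5 is the largest part of the marker sum on the knockout-labelled arrays. Knockout-labelled replicate 3 is highest in all 4 panels, and wild-type replicate 3 is lowest for Nlrc5, Tap1 and the actin gap but not for the markers.

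The rest of the pathway was read from fixed lists, with the brightest tested probe set for each gene. Of the immunoproteasome and its activator, 4 of 5 listed genes were tested, 1 rose (Psmb9) and 0 fell, with a median difference of 0.47. The subunit Psmb10 gave 9.83, 10.19 and 10.20 against 9.51, 9.65 and 9.38 (0.56, adjusted p = 0.161), and the activator subunit Psme1 differed by 0.32 (adjusted p = 0.259). All 4 had an unadjusted p under 0.05 in the limma fit, which 16.4% of all tested probe sets had.

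Among other class I and class I-like genes, 8 of 25 listed were tested, and limma called 0 higher and 0 lower (2 at an unadjusted p under 0.05, median 0.06). Cd1d2 gave 6.83, 7.41 and 7.88 against 5.64, 5.81 and 6.24, without overlap (1.47, SE 0.30, adjusted p = 0.0726). Its paralog, the lipid-presenting molecule Cd1d1, gave 10.64, 10.78 and 10.66 against 10.73, 11.09 and 10.85 (−0.20, adjusted p = 0.529). A second Cd1d1 probe set with a shared-sequence suffix, named after its values were seen, was at −0.71 (adjusted p = 0.0785). Since these genes are close copies, their signals cannot be assigned with certainty. Hfe, a class I-like regulator of iron uptake, differed by 0.59 (adjusted p = 0.183), and Fcgrt, the neonatal Fc receptor, by −0.61 (adjusted p = 0.333).

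Of the genes of class I folding in the endoplasmic reticulum, none passed the test. Of 13 tested, limma called 0 in either direction and 0 had an unadjusted p under 0.05, with a median of −0.02. The smallest p belonged to the translocon subunit Sec61b (0.32, adjusted p = 0.441), the disulphide isomerase Pdia6 (−0.24, adjusted p = 0.449), the translocon subunit Sec61a1 (−0.14, adjusted p = 0.603) and the chaperone calreticulin (Calr, 0.18, adjusted p = 0.618). The other tested Calr probe sets, named after their values were seen, were at −0.03 (adjusted p = 0.952) and 0.04 (adjusted p = 0.939). The probe sets of the chaperone calnexin (Canx), also named then, differed in sign. The one read for the list was at 0.18 (adjusted p = 0.619), while the one with the largest difference of the 3 was at −0.54 (SE 0.23, adjusted p = 0.302). Of 7 tested cytosolic peptidases, limma called 0, with 1 at an unadjusted p under 0.05. That was thimet oligopeptidase Thop1, which degrades class I peptides, at 6.05, 5.83 and 6.58 against 5.80, 5.39 and 4.79 (0.82, adjusted p = 0.248). Leucine aminopeptidase Lap3 differed by 0.49 (adjusted p = 0.308), bleomycin hydrolase Blmh by −0.26 (adjusted p = 0.553) and Nln by −0.20 (adjusted p = 0.624).

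Regulators of class I transcription were tested in 18 of 22 cases, and limma called 0 in either direction (3 at an unadjusted p under 0.05, median −0.06). Irf8, a factor of myeloid and lymphoid cells, gave 6.02, 6.26 and 6.26 against 7.33, 6.84 and 6.40, lower without overlap (−0.68, adjusted p = 0.257). Rfx5, the DNA-binding partner through which Nlrc5 reaches the X box, was at −0.56 (adjusted p = 0.265). The interferon receptor chain Ifnar1 differed by 0.70 (adjusted p = 0.291) and the NF-Y subunit Nfya, which binds the Y box, by −0.27 (adjusted p = 0.421).

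**Figure D5:**
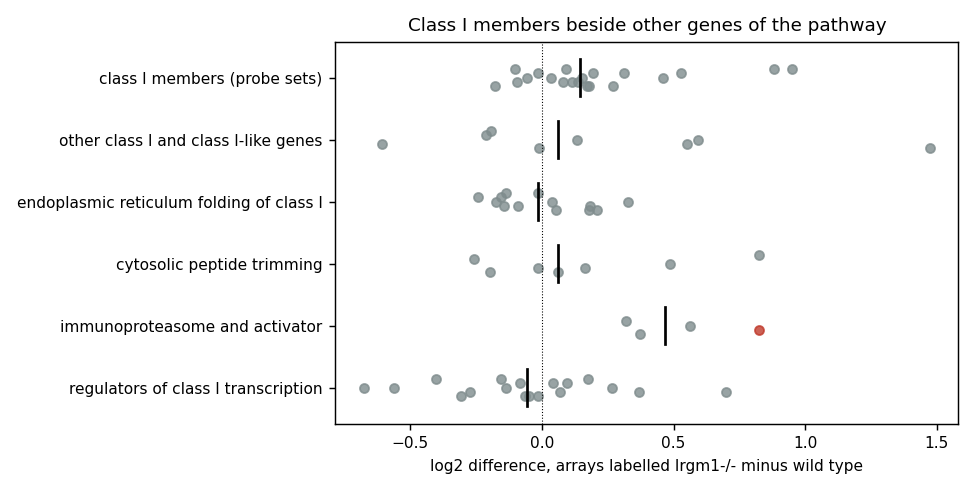
Log2 difference between arrays labelled Irgm1-/- and wild type (x axis) for the 20 tested class I probe sets and for the genes of 5 pathway lists (y axis), with 1 point for each probe set or gene and a bar at the median. The 1 red point, Psmb9, passed the test; the median is 0.14 for the class I members and 0.47 for the immunoproteasome.

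The genes whose pattern over the 6 arrays was most like that of Tap1 were Nelfe, Anxa9, Mtor and Aqr, with Pearson correlations of 0.998, 0.995, 0.995 and 0.993 among 10365 other genes. For B2m (1452428_a_at) they were Qk, Arid5b, Matr3 and Bag4, with correlations of 0.980, 0.971, 0.963 and 0.960. None of these 8 passed the test between groups. Tap1 and Nlrc5 correlated at 0.983 over the 6 arrays. B2m (1452428_a_at) instead ran opposite to the brightest H2-K1 and H2-D1 probe sets (−0.94 and −0.98). Such pairs were not computed for the other B2m probe set. With 6 points that share the 2 groups and the same arrays, and so many genes compared, such values describe the likeness only.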

How the data were processed

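RNA was amplified in 2 rounds of T7 transcription, which favours the 3′ ends of transcripts, and labelled with biotin, per the labels' protocols. The authors deposited log2 expression values per probe set, which the submitters' processing notes credit to GCRMA. Neither version nor settings could be taken from these notes; the range of the values shows the log2 scale. GCRMA corrects background by probe sequence, so values of dim probe sets depend on that correction. No genome build is named for the arrays. Array medians lay between 3.67 and 3.73.

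The comparison used limma 3.58.1 under R 4.3.3 (lmFit and eBayes with an intensity trend, knockout label minus wild type, 2-sided, Benjamini-Hochberg over all 22580 tested probe sets). A probe set was tested when above the array median on at least 3 of 6 arrays. The floor is the highest of 27 bacterial control probe sets over the arrays (3.18). On simulated data of 22737 probe sets for this comparison, the fit called 40% of 2-fold and 83% of 4-fold changes. The simulated noise was drawn separately for each probe set and array. Deviations that many probe sets of an array share are therefore not in these shares. The 3 arrays per group limit the precision.

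The members and the gene lists were chosen with earlier results of these data known. Named genes were every member, Irgm1, the 4 tested genes of each list with the smallest p and the 4 genes most like Tap1 and B2m. Replicate numbers are shared between groups, but same-numbered arrays did not deviate together (correlations of −0.109, −0.0179 and −0.276 over tested probe sets), so the fit has no block. Alternatives were 3 filters, 2 normalisations, 2 variance models, array weights, the replicate block, leaving out arrays and other thresholds. Since values were log2, no pseudocount was tried. Contrasts within arrays, the X2 to Y spacing and 2 alternatives (actin gap, both arrays numbered 3 left out) were chosen after seeing the data. Promoter sequences are RefSeq's.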

Additional observations from a re-analysis of the deposited data

How the results depend on the processing

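The count of 0 class I probe sets called, in either direction, was kept in every alternative but the actin gap as a covariate, where 1 (Nlrc5, 0.82) was called higher. Over all probe sets (150 higher and 163 lower), the counts were 49 and 54 with no filter, 62 and 64 when filtering at the 25th percentile, 401 and 463 with array weights, 252 and 263 with the actin gap, 96 and 60 without both arrays numbered 3, and 314 and 315 at an adjusted p under 0.10. With 1 array left out they ran from 10 to 127 higher and from 7 to 123 lower. With the replicate block they were 27 and 41. Psmb9, the 1 immunoproteasome gene called, was not called (0 called) with no filter, at the 25th percentile, with the replicate block, without both arrays numbered 3 or with any 1 array left out (0 to 0). Array weights, or a 70th percentile filter, called 1 other class I-like gene higher. The cause was not tested.

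Small differences changed sign, each with an adjusted p of at least 0.403. With array weights H2-K1 1427746_x_at was −0.054, H2-D1 1425545_x_at −0.0018, H2-D1 1426324_at −0.088 and B2m 1452428_a_at 0.015. With the actin gap H2-K1 1427746_x_at was −0.0032. Without both arrays numbered 3 it was −0.11, H2-D1 1425545_x_at −0.040, 1426324_at −0.20 and 1451683_x_at −0.022, H2-M3 −0.028, B2m 1452428_a_at 0.054 and Tapbp −0.061. With 1 array left out, H2-K1 1427746_x_at ran from −0.039 to 0.10, H2-K1 1450534_x_at from −0.20 to 0.14, H2-D1 1426324_at from −0.060 to 0.27, H2-M3 from −0.045 to 0.28, B2m 1452428_a_at from −0.12 to 0.015 and Tapbp from −0.019 to 0.30. Of the class I probe sets and pathway genes, the replicate block changed the call of Psmb9 only. Single T and NK cell markers were not refitted with the block.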
